A study of Mus musculus and Homo sapiens with 28 samples.

Results

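The comparison described here sets Renca tumours of mice given VE822 against tumours left untreated, all labelled SETD2 KD. Its members are the libraries whose column in the mouse expression table carries the code SVE (5 libraries, VE822) or SUT (6 libraries, untreated), so 11 of the 28 libraries of the series and 11 of its 24 mouse libraries. Renca is a mouse renal carcinoma line. The cells were mixed with Matrigel, a basement membrane gel, and injected under the skin of the back, although the tissue is labelled kidney. Once tumours could be felt, mice were left untreated or given VE822 by oral gavage at 60 mg/kg on 5 days per week. The genotype label of all 11 libraries is SETD2 KD, read here as a knockdown of Setd2, and their only labelled difference is the treatment. The sources used here do not state how the knockdown was made, whether the cells were 1 clone, or the strain, sex and age of the host mice. Whether every library came from its own animal is likewise unstated, so the spread behind each p-value may be technical. The remaining mouse libraries, 7 labelled WT untreated and 6 labelled WT VE822, share the model and serve as the contrast. All values are regularised log2 values (rlog) as deposited, so a difference of 1 is a 2-fold difference, and the depth of the libraries is unknown.

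VE822 (berzosertib) inhibits ATR, a kinase that senses single-stranded DNA at stalled replication forks and, through its target CHK1, holds back cell division while DNA is repaired. SETD2 places the trimethyl mark on lysine 36 of histone H3 along transcribed genes, and its loss is common in clear cell renal carcinoma. DNA that escapes into the cytosol is bound by cGAS, which signals through STING (Tmem173 in mouse) to type I interferon and chemokines, and T cells drawn to a tumour in turn release interferon-gamma, which raises antigen presentation and the chemokines CXCL9 and CXCL10. The title of the series asks about these steps together.

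Setd2, the gene named in the genotype label, was examined first. Setd2 (ENSMUSG00000044791, GRCm38 chr9:110532597-110618633, plus strand) had rlog levels of 9.62, 9.42, 9.75, 9.96 and 9.86 in VE822 replicates 1 to 5, and from 10.70 to 10.88 with a median of 10.82 in the 6 untreated libraries. The groups did not overlap, and every library labelled VE822 was below every untreated one. The difference was -1.09 ± 0.10 (log2, SE; limma, Benjamini-Hochberg adjusted p 1.083e-07). Untreated libraries labelled WT had a mean Setd2 level of 10.83, against 10.81 in untreated libraries labelled SETD2 KD. The genotype label is thus not visible in the RNA level of its target without treatment, whereas the treatment label is. These values do not show whether the genotype and treatment labels are right, so every difference below is between libraries as labelled. Under the WT label the VE822 difference of Setd2 was -0.80, and the 2 differences were not told apart (interaction p 0.0467, adjusted p 0.544). The median of the genes of chromosome 9, where Setd2 lies, differed by 0.01 between the groups.

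Of the libraries labelled SETD2 KD VE822, replicate 4 stood apart from the other 4. Its mean root mean square distance to the libraries of its own group was 0.518 (log2, 15916 genes), against 0.303 to 0.327 for the other 4, and its distance to the untreated libraries was 0.485. On principal components of the 11 libraries, the first (40.8% of variance) placed replicates 1, 2, 3 and 5 at 22.6 to 28.7, replicate 4 at -1.40 and the untreated libraries at -13.5 to -18.7. The second (31.3%) placed replicate 4 alone, at -51.6. Replicates 1 and 4 also held Y-linked transcripts (Ddx3y 6.22 and 7.59 rlog, against 3.83 to 3.94 in the other 9) and low Xist (5.72 and 5.95, against 8.36 to 9.69), so the libraries labelled VE822 are not alike in these transcripts. Results are therefore given with all 11 libraries, and the main ones also without replicate 4 or without the libraries holding Y-linked transcripts.

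Of 15916 genes tested, 1688 were higher (10.6%) and 1852 lower (11.6%) in the libraries labelled VE822, at a limma adjusted p below 0.05. Of all genes tested, 216 (1.36%) passed and differed by at least 2-fold. All 5 VE822 libraries lay above all 6 untreated ones for 843 genes (5.3%) and below them for 947 (5.95%). Without replicate 4 the counts were 2226 higher (14%) and 2213 lower (13.9%), with 3142 of the original calls made again and 398 lost. Y-linked transcripts were also held under the WT label, by untreated replicates 5, 6 and 7 and VE822 replicates 2, 4, 5 and 6. Leaving out every library with Y-linked transcripts, under both labels, gave 2072 higher (13%) and 2023 lower (12.7%). Subtracting from each library the median of each chromosome turned the split to 2053 higher and 1346 lower. The median difference over all genes tested was 0.01, and the counts and medians of gene groups below are read against these shares.

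The chemokines and GTPases that interferon-gamma induces rose. Cxcl9, the chemokine that attracts T cells through CXCR3 (GRCm38 chr5:92321347-92328079, minus strand), had rlog levels of 10.15, 10.86, 11.07, 9.49 and 9.05 in VE822 replicates 1 to 5 and 6.54 to 7.79 untreated, with a median of 7.42. All 5 VE822 libraries were above all 6 untreated ones, with replicate 5 lowest. Its difference was 2.90 ± 0.52 (log2, SE; limma adjusted p 0.0003231), and 3.06 without replicate 4. Cxcl10, which acts on the same receptor, was at 8.34, 8.74, 9.19, 8.96 and 7.98 against 6.67 to 7.52 (median 7.0), again with no overlap and replicate 5 lowest, a difference of 1.63 ± 0.30. Gbp4, a guanylate-binding GTPase, was at 9.26, 9.90, 10.12, 9.06 and 8.25 against 6.97 to 7.36 (median 7.10), a difference of 2.20 ± 0.37. Iigp1, an immunity-related GTPase, differed by 2.03 ± 0.46 and the similar gene Gm4841 by 2.03 ± 0.42. Of the 18 measured genes of the interferon-gamma and chemokine list, 15 rose and 0 fell, 11 of them with no overlap between the groups, and the list median was 1.06. Irf1, the transcription factor of this response, rose by 0.63, and Socs1, its feedback inhibitor, by 1.08. The monocyte chemokines Ccl2 and Ccl7 (0.18 and -0.38) and Cxcl16 (0.20) did not pass. The list mean was 9.61, 9.94, 10.21, 9.40 and 9.03 in VE822 replicates 1 to 5 and 8.43 to 8.71 untreated, so replicate 5 was nearest to the untreated libraries.

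The promoters of these 2 chemokines are shown because the genes lie close together on chromosome 5 and both rose. Each spans 300 bases around the start, most of them before it (RefSeq, GRCm38.p6), Cxcl9 at chr5:92328030-92328329 and Cxcl10 at chr5:92348840-92349139, both on the minus strand and written 5′ to 3′. Capitals mark matches on either strand to CCAAT, the E-box CACGTG, the AP-1 site TGACTCA, TTCCNGGAA (a site of STAT factors) or CACCCCAC, motifs that overlap in no promoter shown.
Cxcl9: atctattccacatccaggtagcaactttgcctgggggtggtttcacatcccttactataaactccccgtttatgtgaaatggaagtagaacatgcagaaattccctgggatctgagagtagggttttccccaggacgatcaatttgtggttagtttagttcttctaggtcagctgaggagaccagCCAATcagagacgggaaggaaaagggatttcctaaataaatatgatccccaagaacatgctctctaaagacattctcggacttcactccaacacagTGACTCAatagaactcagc
Cxcl10: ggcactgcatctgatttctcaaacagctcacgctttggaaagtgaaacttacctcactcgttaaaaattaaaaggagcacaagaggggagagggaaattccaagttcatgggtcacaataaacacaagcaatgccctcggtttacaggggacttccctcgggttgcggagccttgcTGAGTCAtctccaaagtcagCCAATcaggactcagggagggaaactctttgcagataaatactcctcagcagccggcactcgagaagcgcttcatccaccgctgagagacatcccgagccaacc
Each held 1 TGACTCA and 1 CCAAT, the latter a site of the factor NF-Y. Promoters were matched by symbol for 10 of the 18 measured genes of the list. Of these 10, 4 (40%) held TGACTCA, against 5.95% of all 27025 genes with a promoter in the table, and 1 held TTCCNGGAA (10%, against 1.35%). These matches describe the sequence of the window only.

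T cell genes rose with them. Cd8a, the co-receptor chain of cytotoxic T cells, had rlog levels of 6.45, 5.87, 6.93, 5.59 and 5.06 in VE822 replicates 1 to 5, against 4.02 to 4.43 (median 4.23) untreated, and the groups did not overlap. Its difference was 1.76 ± 0.32 (log2, SE; limma adjusted p 0.000321). Cd3g and Cd3e, subunits of the T cell receptor complex, rose by 1.41 ± 0.22 and 1.38 ± 0.26. Of the 20 measured T cell genes, 18 rose and 0 fell, 16 with no overlap, and the list median was 0.95. Foxp3, the regulator of regulatory T cells, rose by 0.68, and Cd4, the helper co-receptor, by 0.88, where replicate 4 held the highest level. The Cd4 call was lost without replicate 4 (0.55, adjusted p 0.0954), and also without untreated replicate 1 or 3 or VE822 replicate 2 (adjusted p 0.0576 to 0.0629). Zap70 (0.13) and Cd247 (0.29), signalling parts of the receptor complex, did not pass. In bulk tumours, fewer or more cells of a type and less or more RNA per cell cannot be told apart.

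Cd28, the co-stimulatory receptor of T cells, rose more than any other gene of that list. Cd28 (GRCm38 chr1:60716800-60773359, plus strand) was at 7.58, 7.69, 7.95, 5.44 and 7.97 against 4.73 to 5.16 (median 4.90), so replicate 4 lay just above the untreated range and far below the other 4. The difference was 2.40 ± 0.31 (limma adjusted p 8.743e-06) and 2.87 without replicate 4. The order of libraries was not that of Cd8a, for which replicate 5 was lowest and replicate 4 next. In replicate 4 the T cell list mean was 5.62, between replicates 2 (5.82) and 5 (5.43) and above the untreated range of 4.69 to 4.96.

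Genes of killing and of T cell restraint rose as well. Nkg7, a granule protein of cytotoxic cells, was at 6.0, 5.66, 6.05, 5.14 and 5.08 against 4.06 to 4.42 (median 4.21), with no overlap, a difference of 1.37 ± 0.25. Prf1, the pore-forming perforin, rose by 0.86, Il2rb, a receptor chain for interleukin 2 and 15, by 1.32, and Klrk1, the activating receptor NKG2D, by 0.96. Of the 11 measured cytotoxic and NK cell genes 10 rose and 0 fell, with a median of 0.65. Pdcd1, which encodes the checkpoint receptor PD-1, was at 6.90, 6.41, 7.07, 5.28 and 5.73 against 4.53 to 5.21 (median 4.91). The groups of Pdcd1 did not overlap, and replicate 4 lay just above the highest untreated library. Pdcd1 rose by 1.39 ± 0.32, Lag3 by 1.08, Ctla4 by 0.89 and Tigit by 0.85, all inhibitory receptors. Of 14 measured checkpoint genes, 7 rose and 0 fell. Cd274, the ligand PD-L1, was not among them (0.29, adjusted p 0.0753).

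Antigen presentation genes of both classes rose. H2-Aa, a chain of the class II molecule, was at 13.12, 13.60, 13.11, 13.55 and 12.88 against 11.51 to 12.33 (median 12.10), with no overlap, a difference of 1.27 ± 0.25. Ciita, the master regulator of class II genes, rose by 1.40 ± 0.25, H2-Eb1 by 1.33 and H2-DMb1, a peptide loading factor, by 1.26. In all, 8 of 10 class II genes rose and 0 fell (median 1.13). B2m, the shared light chain of class I, was at 15.99, 16.09, 15.98, 15.45 and 15.77 against 15.34 to 15.49 (median 15.41). Replicate 4 of B2m lay inside the untreated range and the other 4 above it, and the difference was 0.44 ± 0.09. Of 18 class I genes 11 rose and 0 fell (median 0.34), and 15 rose without replicate 4. The class I count was 5 without VE822 replicate 1 or 2 and 7 without VE822 replicate 3 or untreated replicate 2. It was also 5 without the libraries whose muscle, adipocyte or keratinocyte list mean was over 2 log2 above the median of the 24 libraries. These were replicate 2 of SETD2 KD VE822, and under WT replicates 1 and 3 untreated and 1 and 4 with VE822. Replicate 4 of SETD2 KD VE822, with an adipocyte list mean of 7.73, fell short of that mark and was kept. H2-Q6 rose by 0.61 and H2-Q4 by 0.39, members of a family of similar genes whose reads may be shared. Tap1, the peptide transporter, rose by 0.51 (adjusted p 0.0297), a call lost without untreated replicate 2 or 3 or VE822 replicate 1, 2 or 3 (adjusted p up to 0.103).

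The DNA sensing and type I interferon lists moved less than the immune lists above by their medians, with shares of rises above that of all genes tested. Cgas (0.34, adjusted p 0.0623) and Tmem173 (-0.06, adjusted p 0.675) did not pass. Tmem173 was lowest in replicate 4 (11.24, against 11.62 to 11.83 in the other 4). Of 14 measured genes of the cGAS-STING list, 4 rose (28.6%) and 1 fell (7.14%), where 10.6% and 11.6% of all genes tested did (list median 0.15). Zbp1, a sensor of Z-form nucleic acid that is itself induced by interferon, was at 10.79, 10.99, 11.16, 10.84 and 9.59 against 9.53 to 10.02 (median 9.63), so replicate 5 lay within the untreated range. Zbp1 rose by 1.00 ± 0.24. Of the subunits of RNase H2, which removes RNA from DNA, Rnaseh2c rose by 0.28 (adjusted p 0.0504 without VE822 replicate 5) and Rnaseh2b fell by 0.30. Samhd1, which depletes the building blocks of DNA, rose by 0.33 (adjusted p 0.0261), a call lost without untreated replicate 5 or VE822 replicate 1, 2 or 3 (adjusted p up to 0.073). Of 36 type I interferon response genes, 11 rose (30.6%) and 0 fell (median 0.20). Oasl2, an oligoadenylate synthetase-like protein (0.85), Bst2, the antiviral tether tetherin (0.68), and Oas2, an oligoadenylate synthetase (0.64), were among the largest rises. Bst2 was at 12.17, 12.33, 12.16, 11.57 and 11.62 against 11.23 to 11.36 (median 11.29), and its groups did not overlap. Isg15 (0.03) and Ifit1 (0.08), chosen here after their values were seen, did not pass. The list mean of replicate 5 was 9.74, below the untreated range of 9.81 to 9.91, and that of the other 4 ran from 10.06 to 10.18.

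**Figure D1:**
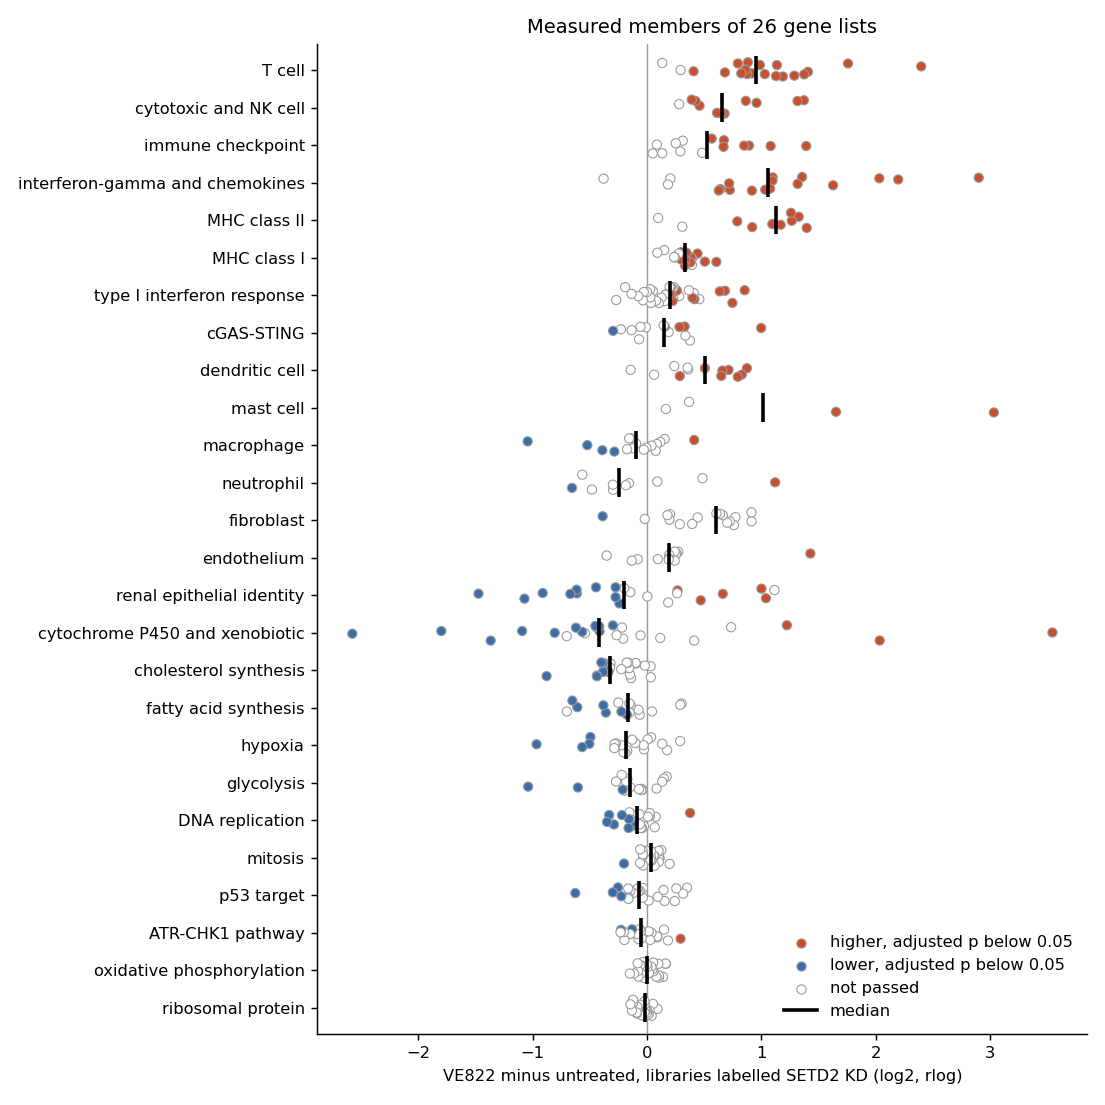
Difference between VE822 and untreated libraries labelled SETD2 KD (x axis, log2 of rlog values) for each measured member of 26 gene lists (rows). Points are genes, filled where limma passed an adjusted p of 0.05 and open where it did not, and bars are list medians; T cell, interferon-gamma and class II members lie mostly to the right (medians 0.95, 1.06 and 1.13) and cholesterol synthesis members mostly to the left (median -0.32).

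Other cell types were described from their marker lists. Dendritic cell genes rose in 8 of 13 cases and fell in 0 (median 0.51), with Itgae, an integrin chain also carried by resident T cells, at 6.92, 6.47, 6.68, 6.81 and 6.50 against 5.30 to 6.16 (median 5.86), a difference of 0.87. Xcr1, a chemokine receptor of cross-presenting dendritic cells, rose by 0.83, and Itgax, the integrin CD11c, by 0.79. The count of risen dendritic cell genes was 5 without VE822 replicate 4 or untreated replicate 1, and 5 with the muscle and adipocyte list means as covariates. Of 17 macrophage genes 4 fell, 1 rose and 12 did not pass (median -0.09). The rise was of Fcgr1, an antibody receptor (0.41, adjusted p 0.0353), and its call held only without untreated replicate 2, 3 or 6 or VE822 replicate 1 or 5. Cd163, a haemoglobin scavenger receptor, was at 10.65, 9.89, 10.27, 9.72 and 10.51 against 10.90 to 11.53 (median 11.26), with no overlap, and fell by 1.04 ± 0.22. Cd14, a lipopolysaccharide co-receptor, fell by 0.52 and Mrc1, the mannose receptor, by 0.39 (adjusted p 0.0517 without VE822 replicate 2). Csf1r, the receptor for the macrophage growth factor, differed by -0.01. The neutrophil list held 1 rise, Ltf (1.12), and 1 fall, Cxcl5 (-0.65), and the B and plasma cell list 1 rise, Ighm (1.49), and 1 fall, Cd79a (-0.82). The calls of Ltf and Cd79a were borderline: that of Ltf held only without untreated replicate 6 or VE822 replicate 4, and that of Cd79a was lost without any 1 of untreated replicates 1 to 5 (adjusted p 0.0512 to 0.0638). Cd79a was at 7.24 in VE822 replicate 4, against 9.42 to 9.92 in the other 4. Without that library its difference was -0.34.

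Stromal and host tissue markers were uneven between libraries. Of 17 fibroblast genes 0 rose and 1 fell, Fbln1, a matrix glycoprotein (-0.39), with a list median of 0.61, which was 0.34 without replicate 4. Col1a1, a collagen chain, was at 13.47, 14.11, 12.55, 13.87 and 14.16 against 11.76 to 13.54, and did not pass (0.91, adjusted p 0.14). Adipocyte genes were high in VE822 replicates 2 and 4 and low in replicates 1 and 5: Cfd, the fat cell protease adipsin, was at 5.04, 10.24, 7.30, 9.44 and 5.01 against 4.95 to 8.42. Red blood cell genes had a median difference of 0.81 but 0 of 6 passed, with Hbb-bs, a globin, at 9.50, 8.76, 8.05, 10.19 and 9.15 against 7.50 to 8.45. Skeletal muscle genes did not pass (0 of 17, median -0.19) and neither did the 2 measured keratinocyte genes. Endothelial genes other than Vwf and Eng were high in replicate 4 alone: the vessel junction genes Pecam1 and Cdh5 were at 10.93 and 10.996 there, against 9.02 to 9.71 and 8.90 to 9.64 in the other 4 and 9.29 to 9.49 and 9.49 to 9.65 untreated. The part of these cell mixtures in the immune and chemokine differences was not tested. With the muscle and adipocyte list means as covariates, 1550 genes were higher and 1604 lower.

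Vwf and the mast cell proteases departed from the other genes of their lists. Vwf, the von Willebrand factor of endothelium and platelets, was at 9.74, 9.86, 9.85, 8.47 and 9.99 against 7.91 to 8.53 (median 8.15), so replicate 4, highest of its group for Pecam1 and Cdh5, lay in the untreated range. Vwf rose by 1.43 ± 0.21 (limma adjusted p 4.44e-05), the only 1 of 13 endothelial genes to pass. Tpsab1, a mast cell tryptase, was at 9.30, 8.14, 8.12, 5.05 and 9.34 against 4.84 to 5.30 (median 4.88), with replicate 4 in the untreated range, and rose by 3.03 ± 0.46. Tpsb2, a second tryptase, rose by 1.65. Kit and Hdc, the other 2 measured mast cell genes, encoding the stem cell factor receptor and the histamine enzyme, did not pass (0.37 and 0.17).

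Several of the largest differences were of genes outside the immune lists, and in those named here replicate 4 lay within the untreated range or above it by less than the other 4. Igf2, an imprinted foetal growth factor (GRCm38 chr7:142650766-142666816, minus strand), was at 10.82, 11.35, 11.14, 6.37 and 11.34 against 5.83 to 6.63 (median 5.98). Replicate 4 lay within the untreated range and the other 4 lay far above it. The difference was 4.14 ± 0.58 (limma adjusted p 2.298e-05) with all libraries and 5.10 without replicate 4. H19, the imprinted neighbour of Igf2, differed by -0.06 and did not pass, and of 14 imprinted growth genes only Igf2 and its clearance receptor Igf2r (0.39) rose. Aoc1, a diamine oxidase that breaks down histamine and polyamines, was at 9.21, 9.54, 9.31, 5.41 and 9.50 against 4.93 to 5.12 (median 5.06), a difference of 3.55 ± 0.48 and 4.34 without replicate 4. Tceal7, a small nuclear protein gene of the X chromosome, was at 6.56, 7.68, 8.12, 4.60 and 8.14 against 4.20 to 4.48 (median 4.27) and differed by 2.72 ± 0.44. Replicate 4 of Aoc1 and of Tceal7 was just above the untreated range.

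Ppargc1a, the transcriptional coactivator PGC-1α that drives mitochondrial genes, was at 8.39, 8.41, 8.51, 6.47 and 8.39 against 5.54 to 5.99 (median 5.88), a difference of 2.19 ± 0.25. Of 25 genes of oxidative phosphorylation 0 rose or fell (median 0.00). Without replicate 4, in which Ppargc1a was lowest of the VE822 group, 3 of the 25 rose (median 0.02), where 14% of all genes tested did. Under the WT label 7 of the 25 rose, where 17.2% of all genes tested did. Bcam, a laminin receptor (2.29), Ndufa4l2, a hypoxia-inducible mitochondrial protein (2.28), Rtp3, a receptor transport protein (2.25), and Atp13a4, a transport ATPase (2.20), were the other large rises among the 12 named by size, and in each of these 4 genes replicate 4 was the lowest VE822 library. Of the 12 genes, the interferon-inducible Cxcl9, Gbp4 and Iigp1 had replicate 5 as their lowest VE822 library and the other 9 had replicate 4. Among these 9 was Gm4841, the gene similar to Iigp1, so the interferon-inducible genes were not alike in this order. Replicate 4 of Gm4841 was 1.11 above the untreated mean, against 2.26 for the mean of the other 4.

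**Figure D2:**
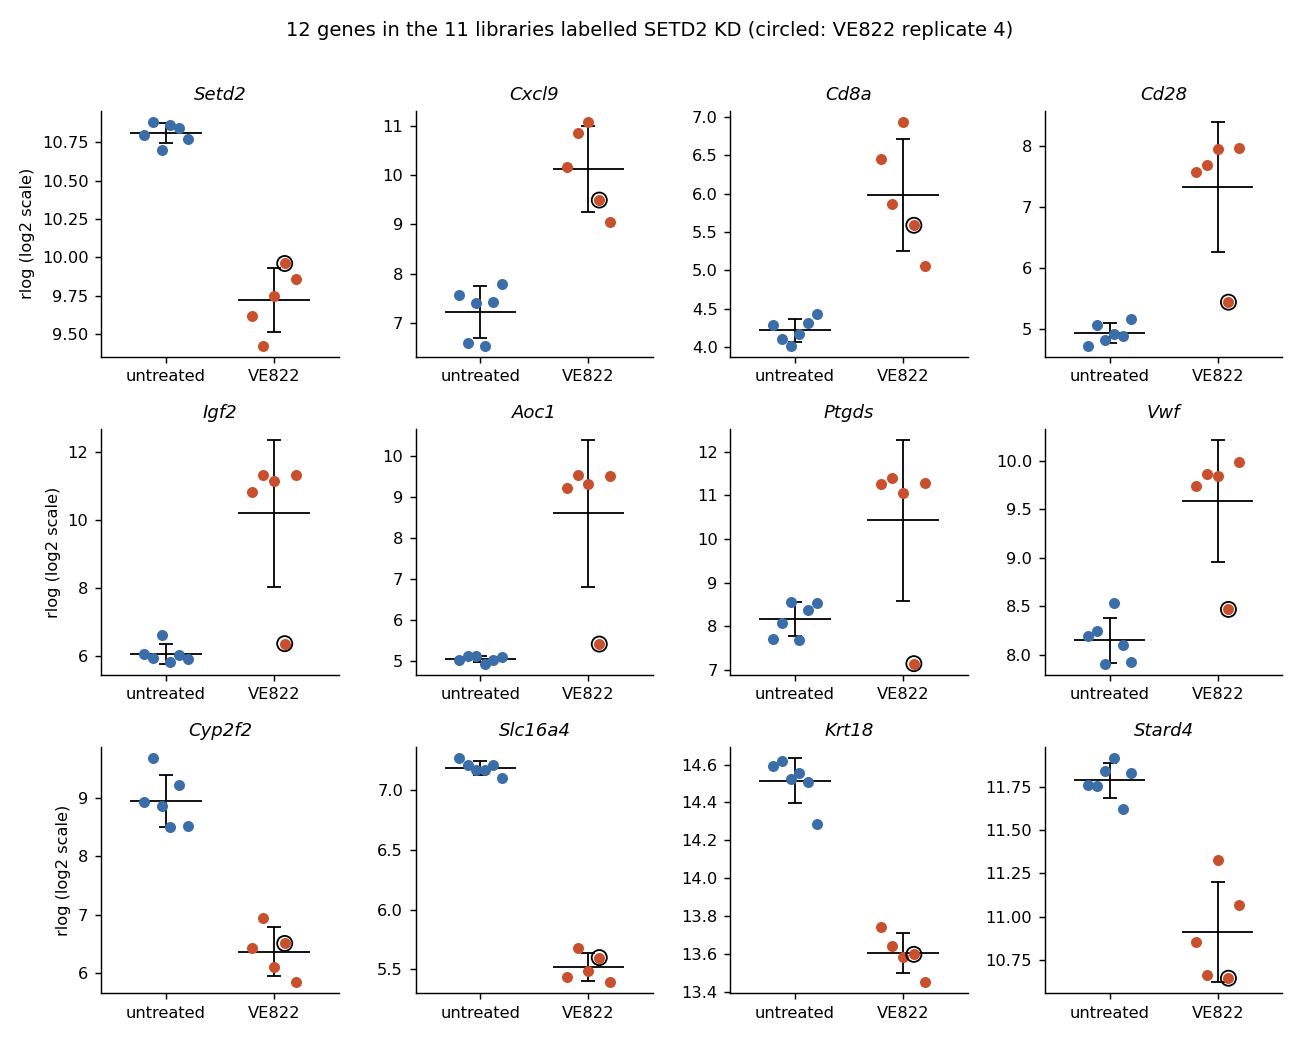
Level (y axis, rlog, log2 scale, each panel on its own range) of 12 genes in the 6 untreated and 5 VE822 libraries labelled SETD2 KD. Points are libraries, lines the group means and bars 1 SD; the circled VE822 replicate 4 lies in the untreated range for Igf2 (6.37) and Vwf (8.47), below it for Ptgds (7.14), and with the other VE822 libraries for Setd2, Cyp2f2, Slc16a4, Krt18 and Stard4.

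To see how far replicate 4 shared the pattern, genes were chosen on the other 10 libraries alone. Of 236 genes at least 2-fold higher in the other 4 VE822 libraries, with no overlap with the untreated ones, replicate 4 lay above the untreated range in 120, within it in 56 and below it in 60. Its median difference for these genes was 0.25, against 1.34 in the 4 libraries that chose them. Of 34 genes at least 2-fold lower by the same rule, replicate 4 lay below the untreated range in 23, within it in 6 and above it in 5, with a median of -0.69 against -1.18. Genes so chosen favour the 4 libraries that chose them, and no other VE822 library was held out in this way. The size of either gap therefore does not measure how unlike replicate 4 is. The genes named next are among the 10 picked because they set replicate 4 farthest apart, so its distance from the other 4 in them follows from that pick. Ptgds, a prostaglandin D synthase, was at 7.14 in replicate 4 against 11.06 to 11.39 in the other 4 and 7.69 to 8.55 untreated. Slc2a3, the glucose transporter GLUT3, was at 8.70 against 11.97 to 12.35 and 9.68 to 10.33 (1.47 with all libraries, adjusted p 0.0195, a call lost without any 1 of the other 4 VE822 libraries, adjusted p 0.0537 to 0.064), and Cldn2, a tight junction protein, at 6.49 against 9.50 to 9.96 and 7.62 to 8.57. In each of these 3 genes replicate 4 was below all untreated libraries while the other 4 were above them. Cyp11a1, which starts steroid hormone synthesis, and Papln, a matrix protein, showed the same order (8.61 and 5.79 in replicate 4). Cldn2 (1.01, adjusted p 0.0645) and Cyp11a1 (1.12, adjusted p 0.0617) passed only without replicate 4 (1.65 and 1.77), an outcome that the pick of these genes favours.

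**Figure D3:**
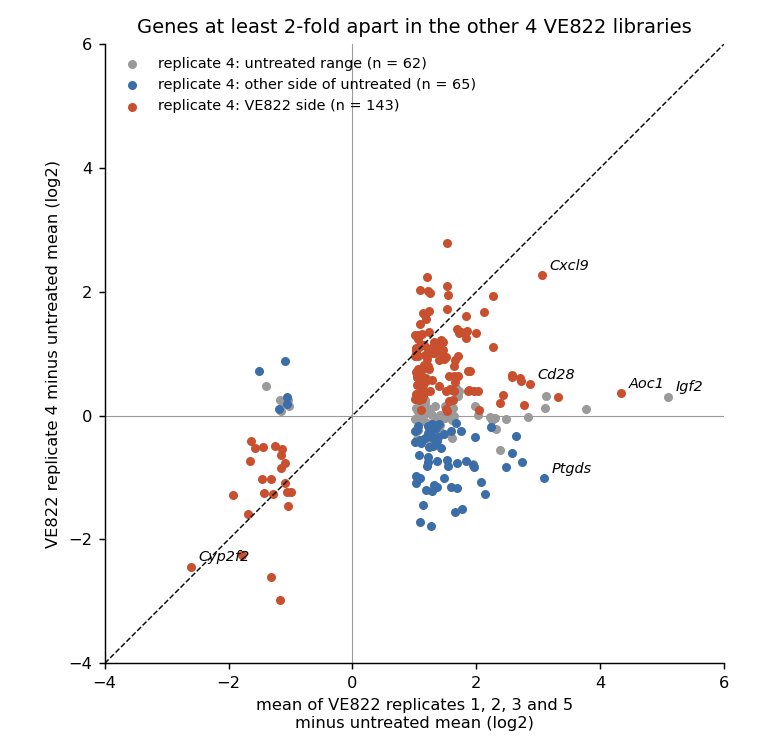
Each point is 1 of the 270 genes that differed by at least 2-fold without overlap between 4 VE822 libraries (replicates 1, 2, 3 and 5) and the 6 untreated ones; x axis their mean difference, y axis the difference of replicate 4 from the untreated mean (both log2). Dashes mark equal differences; most genes lie below the dashed line on the right, with 62 of 270 in the untreated range and 65 beyond it on the other side.

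The falls named by size were chosen among genes whose groups did not overlap, so that all 5 VE822 libraries lay below the untreated ones by that choice. Cyp2f2, a cytochrome P450 of airway cells (GRCm38 chr7:27119909-27133660, plus strand), was at 6.43, 6.95, 6.11, 6.51 and 5.85 against 8.49 to 9.67 (median 8.89), with no overlap, and fell by 2.58 ± 0.27 (limma adjusted p 6.738e-07). Slc16a4, a monocarboxylate transporter, was at 5.43, 5.68, 5.49, 5.60 and 5.40 against 7.10 to 7.27 (median 7.19) and fell by 1.67 ± 0.09 (adjusted p 1.288e-11). Replicate 4 lay within the range of the other 4 in both genes. Fxyd6, a regulator of the sodium pump, fell by 1.88 ± 0.11 and Ces2g, a carboxylesterase, by 1.80 ± 0.14. Avil, an actin-binding villin relative (-1.57), Chrdl2, an inhibitor of bone morphogenetic proteins (-1.54), Ptprr, a tyrosine phosphatase (-1.39), Exph5, a vesicle transport protein (-1.37), Rragb, a GTPase that links amino acids to mTORC1 (-1.28), and the uncharacterised Gm2115 (-1.39) were among the 12 largest falls. In the cytochrome P450 and xenobiotic list 12 of 24 genes fell and 3 rose (median -0.42). Cyp2j6, an epoxygenase, fell by 1.37 and Nqo1, a quinone reductase of the antioxidant response chosen here after its value was seen, by 1.09. Cyp2s1, a P450 of epithelia, rose by 1.22, and Cyp4f40, a fatty acid hydroxylase, by 2.03 ± 0.43. Cyp4f40 was at 9.19, 8.60, 9.51, 5.61 and 9.05 against 5.99 to 6.57 (median 6.42), with replicate 4 below the untreated range.

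Genes of renal epithelial identity moved in both directions. Hsd11b2, which protects the mineralocorticoid receptor from glucocorticoids, was at 5.78, 5.65, 5.24, 6.45 and 5.46 against 6.77 to 7.50 (median 7.24), with no overlap, and fell by 1.47 ± 0.24. Pou3f3, a transcription factor of the nephron, was at 8.21, 7.42, 7.45, 9.95 and 7.79 against 9.10 to 9.45 (median 9.21). Replicate 4 of Pou3f3 lay above the untreated range and the other 4 below it, and the difference was -1.07 with all libraries and -1.52 without replicate 4. Krt18, a keratin of simple epithelia named after its values were seen, was at 13.74, 13.64, 13.58, 13.60 and 13.45 against 14.29 to 14.62 (median 14.54), a fall of 0.91 ± 0.06 (limma adjusted p 7.37e-10). Its partner Krt8 fell by 0.61 ± 0.07. Epcam, an epithelial adhesion molecule, rose by 1.00 ± 0.20. Wt1, a factor of early nephrons, was at 8.86, 8.34, 9.30, 6.04 and 8.63 against 6.88 to 7.64 (median 7.11), so its libraries other than replicate 4 were high and replicate 4 was low. Wt1 barely passed (1.04, adjusted p 0.0483); the call held without replicate 4 (1.59, adjusted p 1.9e-05) or without untreated replicate 4, and was lost without any 1 of the other 9 libraries (adjusted p up to 0.155). Of the 21 measured genes, 5 rose and 10 fell (median -0.20), and 7 and 8 without replicate 4.

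Cholesterol synthesis genes fell in 10 of 24 cases and rose in 0, with a median of -0.32. Stard4, a sterol carrier, was at 10.86, 10.66, 11.33, 10.64 and 11.07 against 11.62 to 11.92 (median 11.80), with no overlap, and fell by 0.88 ± 0.10 (limma adjusted p 2.87e-06). Sqle, the squalene epoxidase, was at 12.80, 12.69, 12.98, 12.69 and 12.88 against 13.18 to 13.30 (median 13.26) and fell by 0.44 ± 0.08. Mvd, which forms isopentenyl diphosphate, fell by 0.44 and Fdps, which joins isoprene units, by 0.40. Srebf2, the transcription factor that turns on these genes when sterol is low, fell by 0.38. In all 10 fallen members but Fdft1, the squalene synthase, the groups did not overlap. The call of Fdft1 was lost without untreated replicate 2 or 3 or VE822 replicate 2 or 4 (adjusted p 0.0598 to 0.0939). The count of falls was 10 without replicate 4 and 8 without the libraries holding Y-linked transcripts. Of 16 fatty acid synthesis genes 6 fell and 0 rose: Scd2, a desaturase, by 0.65, Fads2 and Fads1, desaturases of polyunsaturated fatty acids, by 0.61 and 0.36, and Acly, which makes acetyl-CoA in the cytosol, by 0.38.

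Promoters of 3 of the fallen cholesterol genes are shown, chosen after their values were seen, because all 16 list members with a promoter in the table hold CCAAT. Each spans 300 bases as above (RefSeq, GRCm38.p6): Mvk, the mevalonate kinase, at chr5:114444019-114444318 on the plus strand, Srebf2 at chr15:82147019-82147318 on the plus strand, and Nsdhl, a sterol dehydrogenase, at chrX:72918271-72918570 on the plus strand. Capitals again mark the 5 motifs, which here are CCAAT or its reverse complement ATTGG.
Mvk: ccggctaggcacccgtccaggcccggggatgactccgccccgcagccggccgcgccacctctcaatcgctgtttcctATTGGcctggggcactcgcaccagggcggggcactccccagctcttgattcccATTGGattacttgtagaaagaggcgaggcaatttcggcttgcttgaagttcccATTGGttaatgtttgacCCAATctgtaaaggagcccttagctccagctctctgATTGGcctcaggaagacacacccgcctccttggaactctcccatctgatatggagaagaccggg
Srebf2: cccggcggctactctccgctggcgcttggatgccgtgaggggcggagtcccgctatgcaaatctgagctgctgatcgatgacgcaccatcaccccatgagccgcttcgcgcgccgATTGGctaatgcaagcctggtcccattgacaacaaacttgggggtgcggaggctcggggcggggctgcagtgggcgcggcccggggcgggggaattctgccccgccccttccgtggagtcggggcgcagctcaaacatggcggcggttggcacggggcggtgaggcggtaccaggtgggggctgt
Nsdhl: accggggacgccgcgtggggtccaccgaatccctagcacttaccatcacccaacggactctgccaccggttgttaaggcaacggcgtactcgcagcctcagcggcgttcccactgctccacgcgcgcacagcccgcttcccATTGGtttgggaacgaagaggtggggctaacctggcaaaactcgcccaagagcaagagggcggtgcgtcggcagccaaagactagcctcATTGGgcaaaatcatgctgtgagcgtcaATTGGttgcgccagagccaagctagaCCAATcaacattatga
Mvk held 5 matches, Nsdhl 4 and Srebf2 1. CCAAT was present in 6 of 6 fallen genes and 10 of 10 members that did not fall, against 41.1% of all 27025 genes of the table, so its presence did not separate the 2 sets. CACGTG, an E-box, was in 4 of the 16 (25%, against 8.09%). Mvk fell by 0.34 and Nsdhl by 0.36. The call of Nsdhl was lost without untreated replicate 2 or 3 or VE822 replicate 1 or 2 (adjusted p 0.0534 to 0.0618).

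The genes nearest to the drug's target moved little. Atr was at 9.13, 8.98, 9.30, 9.31 and 9.08 against 8.86 to 9.35 (median 9.03), overlapping throughout (0.09, adjusted p 0.529), and Chek1 differed by -0.07 (adjusted p 0.615). Of 19 measured genes of the ATR and CHK1 pathway, 1 rose (5.26%) and 2 fell (10.5%), where 10.6% and 11.6% of all genes tested did. Cdc25a, the phosphatase that CHK1 sends to degradation, rose by 0.29 ± 0.06. Tipin, of the fork protection complex, fell by 0.23 and Rpa2, which coats single-stranded DNA, by 0.13 (adjusted p 0.0469). The Rpa2 call held only without untreated replicate 1 or 2 or VE822 replicate 2. DNA replication genes fell in 8 of 26 cases and rose in 1 (median -0.09), and 5 fell with chromosome medians removed. Mcm4, part of the replicative helicase, was at 12.78, 12.74, 12.91, 12.91 and 12.87 against 13.07 to 13.26 (median 13.20), with no overlap, and fell by 0.35 ± 0.04. Mcm5 fell by 0.33 and Gins2, also of the helicase, by 0.29. Cdc45, which completes that helicase, was at 11.03, 11.12, 11.18, 10.83 and 11.11 against 10.61 to 10.75 (median 10.67) and rose by 0.38 ± 0.05. The mitosis list held 0 rises and 1 fall of 22, Cdk1, the kinase of entry into mitosis (-0.20), which was -0.01 with the medians of its chromosome, 10, removed. Gins2 lost its call by the same step (-0.17, adjusted p 0.115). Of 22 p53 targets 0 rose and 4 fell (2 and 5 without replicate 4), with Sesn1, a stress-induced regulator of mTORC1, at -0.63 and Zmat3, an RNA-binding protein, at -0.25. With chromosome medians removed, 3 p53 targets rose and 4 fell. Cdkn1a, the p53-induced cell cycle inhibitor, differed by 0.15 and did not pass, a gene named after its value was seen. Of 22 homologous recombination genes 0 rose and 2 fell (9.09%, against 11.6% of all genes tested), Brca2 (-0.33) and Mre11a (-0.17). Without replicate 4, 1 rose and 4 fell, where 14% of all genes tested rose and 13.9% fell. The calls of Brca2 and Mre11a were lost without VE822 replicate 2 (adjusted p 0.0773 and 0.0577), that of Brca2 also without untreated replicate 4 (0.0549).

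Of the 3 stress and metabolism lists described here, of 17 to 20 genes each, 3 or 4 members fell, where 11.6% of all genes tested did. Pgam1, a phosphoglycerate mutase of glycolysis, was at 12.60, 12.04, 12.45, 11.40 and 12.19 against 12.97 to 13.43 (median 13.17), with no overlap and replicate 4 lowest, and fell by 1.04 ± 0.16. Aldoc, an aldolase, fell by 0.60, and 3 of 17 glycolysis genes fell in all, with 0 rises (median -0.15). Without replicate 4 the glycolysis list held 3 falls and 2 rises (median -0.0039). The glycolysis list mean was 12.79 in replicate 4, against 13.49 to 13.77 in the other 4 and 13.41 to 13.81 untreated. Of 20 hypoxia genes 4 fell and 0 rose. Ndrg1, a stress-response gene, was at 16.68, 16.45, 16.43, 15.80 and 16.40 against 16.73 to 17.10 (median 16.89) and fell by 0.57 ± 0.14, and Ddit4, an inhibitor of mTORC1, fell by 0.50. Without replicate 4 the hypoxia list held 2 rises and 2 falls. In the list of the integrated stress and unfolded protein responses, Trib3, a pseudokinase (-0.35), Psat1, of serine synthesis (-0.33), and Ddit3, the factor CHOP (-0.32), fell and Pdia4, a protein disulphide isomerase, rose (0.32), 4 of 20 in all, and without replicate 4 there were 3 falls and 2 rises. Ddit3 lies on chromosome 10 and was at -0.13 (adjusted p 0.22) with chromosome medians removed. Ddit4 lies on the same chromosome, whose median differed by -0.182 between the groups. Ribosomal protein genes held 0 rises and 0 falls of 24 (median -0.02).

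Genes of the mark that SETD2 writes changed in 4 of 21 cases, Setd2 included. Of the 21, 2 rose and 2 fell (9.52% each), close to the 10.6% and 11.6% of all genes tested. Dnmt3a, a DNA methyltransferase that reads methylated lysine 36, was at 10.24, 10.35, 10.65, 10.49 and 10.50 against 9.98 to 10.22 (median 10.09), with no overlap, and rose by 0.36 ± 0.09. Hdgfl2 (0.18) and Msh6 (-0.19), which also bind that mark, passed narrowly (adjusted p 0.0431 and 0.0245). The call of Msh6 was lost without untreated replicate 1 or 3 or VE822 replicate 2 (adjusted p 0.0527 to 0.0715), and that of Hdgfl2 held only without untreated replicate 2 or 5 or VE822 replicate 1 or 4. Of 22 immediate early genes 1 rose (4.55%) and 3 fell (13.6%), where 10.6% and 11.6% of all genes tested did. The rise was of Nr4a1, a nuclear receptor induced by T cell receptor and growth signals (0.52). Klf2, a factor of quiescent endothelium and lymphocytes, was among the falls (-0.35). Twist2, a mesenchymal transcription factor, fell by 0.57 ± 0.08, and 1 of the 17 genes of that list rose. Icam1, an adhesion molecule of the NF-kB list, was at 9.58, 9.93, 10.09, 9.47 and 10.07 against 8.85 to 9.42 (median 9.26) and rose by 0.62 ± 0.14, 1 of 4 rises and 0 falls of 18.

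Genes of a chromosome shifted together. Over the 553 genes of chromosome 8 whose mean rlog reached 8, the median was 0.119 lower (log2) in the libraries labelled VE822 (exact two-sided permutation test over 11 libraries, adjusted p 0.0217 over 20 chromosomes), and 76.7% of those genes were lower. It was -0.049, -0.062, -0.059, -0.086 and -0.062 in replicates 1 to 5 and 0.030 to 0.078 untreated, with no overlap. Chromosome 15 was 0.106 lower (same test, adjusted p 0.0217). Chromosome 12 was lower by 0.034 (adjusted p 0.0433), a call lost with a filter at an rlog of 5 and with means in place of medians. The smallest unadjusted p this test can give is 0.0022. Chromosome 10 moved most, by -0.182, but did not pass (adjusted p 0.0606): its median was -0.138, -0.174, -0.151 and -0.134 in replicates 1, 2, 3 and 5 and 0.105 in replicate 4, against 0.046 to 0.116 untreated. Falls named above include genes of these chromosomes, such as Mcm5 on 8, Srebf2 on 15, and Ddit4 and Avil on 10. On chromosome 6 replicate 4 was at -0.198, against 0.048 to 0.114 in the other 4. Without replicate 4, 8 chromosomes passed, chromosome 10 among them (-0.236, adjusted p 0.0159), and without VE822 replicate 3, 6 did. With 1 untreated library left out, the 5 against 5 libraries cannot give a p below 0.0079, and 0 chromosomes passed.

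**Figure D4:**
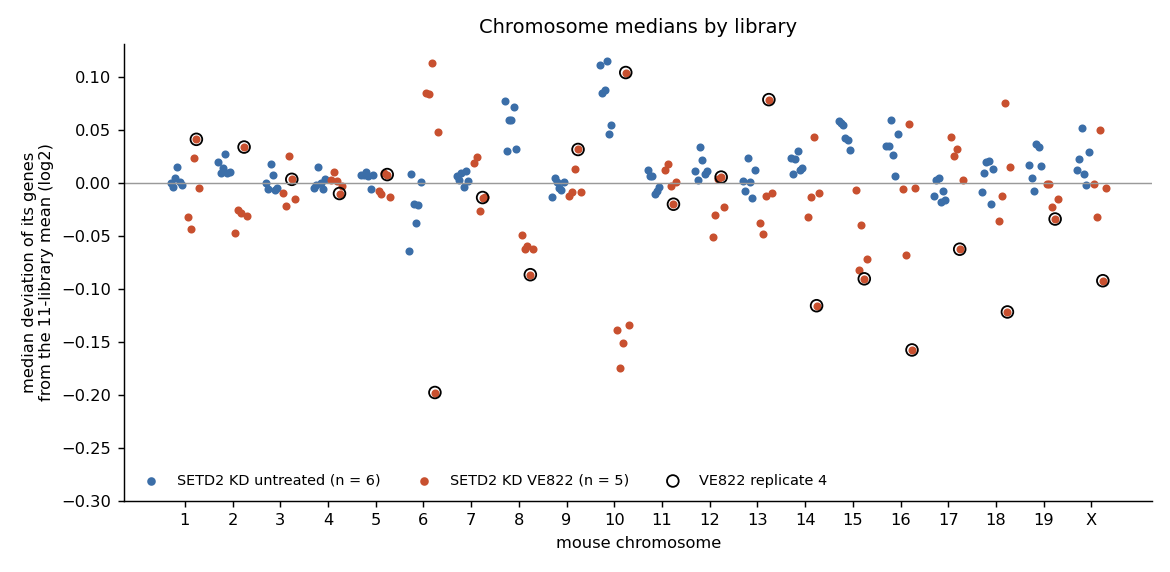
Median deviation (y axis, log2) of the genes of each chromosome (x axis) from their mean over the 11 libraries labelled SETD2 KD, 1 point per library. The VE822 libraries lie below the untreated ones on chromosomes 8 and 15; on chromosome 10 replicate 4 (circled, 0.105) lies with the untreated libraries, and on chromosome 6 it lies below all others (-0.198).

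The test of whether VE822 acted differently under the 2 genotype labels called 0 of 15916 genes (limma interaction, 0%), with 1452 at an unadjusted p below 0.05 (9.12%) and a smallest adjusted p of 0.424. The same count, 0, came from each alternative fit that included the WT libraries. The 2 comparisons share no library. Of the 3540 genes called under the SETD2 KD label, 3437 had the same sign under the WT label and 2605 were called there in the same direction (73.6% of these calls and 47.1% of the 5530 calls under WT), and 0 were called in the opposite direction. Across genes, which are not independent replicates, the 2 differences correlated at a Pearson r of 0.834. The median SE of the interaction was 0.115 (log2). Igf2 differed by 4.14 here and 4.34 under WT, Cxcl9 by 2.90 and 2.57, Cd28 by 2.40 and 1.98, and Cyp2f2 by -2.58 and -2.82.

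The genes with the smallest interaction p, none past the adjusted threshold, were led by Plxna2, a semaphorin receptor (-0.25 here, -0.79 under WT, interaction 0.54 ± 0.11, p 6.97e-05 before adjustment). Fmod, a collagen-binding proteoglycan, differed by -0.02 and 1.32. Pkhd1, the cilium protein of polycystic kidney disease, was at 8.85, 8.84, 8.97, 9.70 and 8.95 against 7.78 to 8.18 (median 7.94), with no overlap and replicate 4 highest, a difference of 1.11 ± 0.14 here and 0.29 under WT. Dennd2d, an activator of Rab GTPases, differed by -0.71 and -0.02, and Sorbs2, an adaptor of the actin cytoskeleton, by -0.58 and -1.02. Set side by side, Iigp1 differed by 2.03 and 1.24, the median of the type I interferon list was 0.20 and 0.03, and that of the cholesterol synthesis list -0.32 and -0.50. The differences between these medians were not tested.

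**Figure D5:**
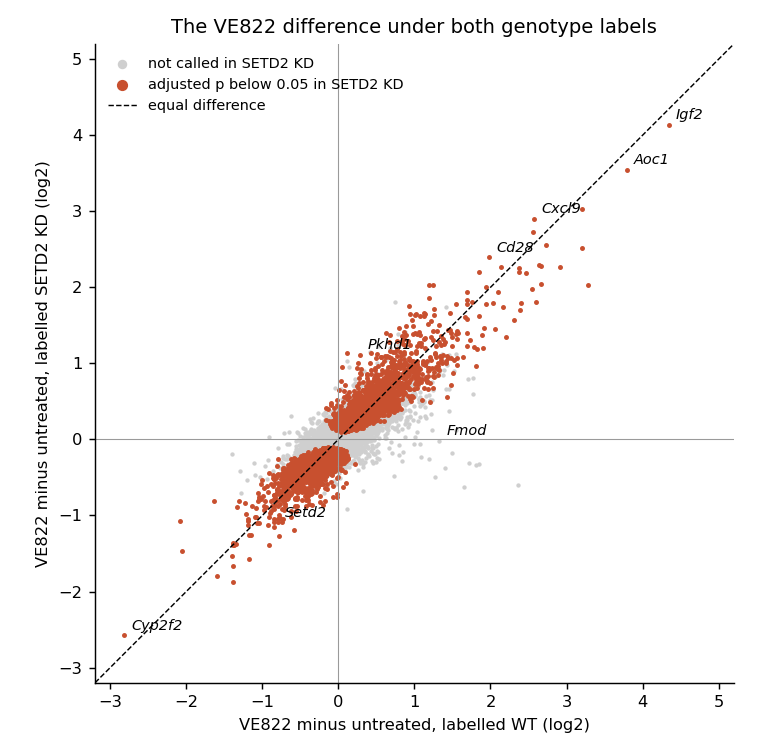
Difference between VE822 and untreated libraries labelled SETD2 KD (y axis) against the same difference under the WT label (x axis), both in log2, for 15916 genes; red points passed an adjusted p of 0.05 under the SETD2 KD label. Red points lie along the dashed line of equal differences (r of 0.834 over genes), and Igf2, Aoc1, Cd28 and Cxcl9 lie near it.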

How the data were processed

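Bulk RNA of 24 mouse tumours was sequenced, and the authors deposited 1 mouse table of regularised log2 (rlog) values, 46078 gene rows by 24 libraries. FastQC, TopHat, HTSeq, DESeq2 and the builds hg38 and GRCm38 are listed, without versions, per the submitters' processing notes. The sources used here state no depth, strandedness or filter. The rlog scale draws low values towards a gene's mean, so differences of low genes are understated, and no count test was possible. Without known strand, overlapping and antisense genes may share reads (such as Igf2 and its opposite-strand gene Igf2os), as may similar genes (class I, globins, histones).

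Genes with a mean rlog of at least 3 over the 24 libraries were tested (15916) with limma 3.58.1 in R 4.3.3: 4 group means, eBayes with trend, contrasts for VE822 under SETD2 KD, under WT and their difference, Benjamini-Hochberg adjusted over all genes, threshold 0.05. The fit was tested on simulated data. Chromosome medians used genes with a mean rlog of at least 8 and an exact permutation test. Symbols and positions are from GENCODE vM21 (98.2% of identifiers matched). Lists are described by counts and medians, with no test. The comparison, the 41 lists and their rules were chosen with earlier results of these data known. Named genes are Setd2, Atr, Chek1, Cgas, Tmem173, Igf2 and Cd28, the 12 largest non-overlapping rises and falls among called protein-coding genes with a mean of at least 6 in the higher group, up to 4 passing members per list by size (where none passed, up to 3 by level), the 10 smallest interaction p-values and the 10 genes that set replicate 4 farthest apart. Alternatives changed the filter, variance trend, weights, scaling, covariates and libraries. A few genes that the rule names are not reported here.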

Additional observations from a re-analysis of the deposited data

Results flagged for a closer look

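Within each group of libraries, the highest or lowest value was compared with its nearest neighbour (Dixon's ratio) for every gene, list mean and chromosome median named. Of 382 groups scanned 48 held such a value. Chance gives about 1 in 20, but the genes were not a random draw, so the 2 shares are not comparable. In 27 of the 48 the library was SETD2 KD VE822 replicate 4, 10 of them for genes named because they set it farthest apart, and 21 lay in other libraries.

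Replicate 4 was lowest of its group for genes that were high in the other 4 VE822 libraries. These were Igf2 (6.37 rlog), Aoc1 (5.41), Tpsab1 (5.05), Cd28 (5.44), Vwf (8.47), Ppargc1a (6.47), Bcam (8.45), Ndufa4l2 (7.92) and Rtp3 (5.05), with Ptgds (7.14), Slc2a3 (8.70), Cldn2 (6.49), Cyp11a1 (8.61), Papln (5.79), Cyp4f40 (5.61) and Ppef1, a protein phosphatase with calcium-binding motifs (6.16). It was also lowest for Slc4a1, the anion exchanger of red blood cells (6.79), Cd79a, a B cell receptor chain (7.24), Cdkn1a (11.59), Rnaseh2c (8.62) and Chrdl2 (8.67), and highest for Gm2115 (6.52), Pkhd1 (9.70) and Cdk1 (11.62). Cdk1 lies on chromosome 10, whose median was highest there (0.105), while that of chromosome 6 was lowest (-0.198). The mean of the glycolysis list was lowest in it too (12.79).

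Replicate 5 held the lowest value of the VE822 group for Zbp1 (9.59) and for the mean of the type I interferon list (9.74), and the highest for Nfkb2 (11.66), the precursor of an NF-kB subunit. Replicate 2 was highest for Rpa2 (10.36).

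Among untreated libraries, replicate 6 stood out for the fat cell gene Cfd (8.42), the tryptases Tpsab1 (5.30) and Tpsb2 (4.29), Klrk1 (5.26) and Ppef1 (7.64), all highest, and for Cdkn1a (11.81) and Krt18 (14.29), both lowest. Replicate 5 was highest for Prf1 (3.52) and Zbp1 (10.02) and lowest for Ppargc1a (5.54). Replicate 4 was highest for H19 (6.26) and lowest for Zap70 (6.11) and H2afv, a histone variant (10.73). Replicate 3 was highest for Igf2 (6.63) and replicate 2 for Cdh5 (9.65) and Mvd (10.05). Replicate 1 was lowest for Kank1, a regulator of actin (10.20).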

How the results depend on the processing

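No named difference that passed changed sign under any alternative run. The Setd2 difference ran from -1.15 to -1.01 and stayed past the threshold in all of them. Library weights raised the count of higher genes to 2554, and a fit of the 11 libraries alone without replicate 4 (chosen after seeing the data) to 2622. Over the leave-one-out fits the higher genes numbered 1365 to 2226, the lower ones 1448 to 2213, and the chromosomes that passed 0 to 8. The median of all genes moved between -0.0171 (quantile normalization) and 0.0281 (chromosome medians removed). Of 148 named genes that passed, 34 lost the call without at least 1 single library. Of 3969 values of named genes under alternatives, 279 fell short of the threshold that the gene had passed and 37 newly passed it; the causes were not tested. Of 308 counts of risen or fallen list members under alternatives (lists with at least 5), 17 moved by over 1.5 times: beside the class I, dendritic cell and DNA replication counts given above, class I rises were 17 in place of 11 in the 11 libraries without replicate 4, dendritic cell rises 5 in place of 8 with no filter or one at 5, a filter at a mean rlog of 5, which drops low genes, left 7 T cell, 2 cytotoxic and 4 checkpoint rises in place of 18, 10 and 7, and renal identity rises were 8 in place of 5 with library weights or in the 11 libraries without replicate 4. Without replicate 4, smaller lists also changed: the mesenchymal list held 0 rises and 3 falls in place of 1 and 1, mast cell rises were 3 in place of 2, and the endothelial median was -0.09 in place of 0.20. No paired analysis was possible because the titles give each mouse library its own number. Without counts, the precision set by depth is unknown.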

Other observations

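Transcripts of the mitochondrial genome rose in 4 of 13 cases and fell in 0 (median 0.11), and in 2 without VE822 replicate 4. mt-Atp6, a subunit of ATP synthase, was at 8.19, 8.10, 8.82, 8.81 and 8.28 rlog in VE822 replicates 1 to 5 against 7.56 to 8.14 (median 7.82) untreated, and rose by 0.59 ± 0.15 (limma adjusted p 0.00705). Its partner mt-Atp8, which overlaps it in sequence, was at 5.56 and 5.50 in replicates 3 and 4 and at 3.43 to 3.82 in the other 3, against 3.19 to 3.58 untreated. The mt-Atp8 difference of 0.95 was lost as a call without replicate 3 or 4 (adjusted p 0.0683 and 0.0521). mt-Nd3 (0.41) and mt-Nd6 (0.45), subunits of complex I, passed narrowly. The mt-Nd3 call was lost without untreated replicate 4 or VE822 replicate 3, and that of mt-Nd6 without untreated replicate 2, 3, 4 or 6 or VE822 replicate 3 or 4 (adjusted p up to 0.0795 and 0.116).

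Lep, the fat cell hormone leptin, was at 4.01, 4.54, 3.94, 3.94 and 4.13 against 3.34 to 3.93 (median 3.50) and rose by 0.57 ± 0.12, the only 1 of 11 adipocyte genes to pass. Its order of libraries was not that of Cfd, since replicates 1 and 5 were also above the untreated range. Hist2h2be, a polyadenylated histone H2B gene, rose by 0.53 and H2afv, an H2A variant, fell by 0.20, the only 2 of 13 on that list. The H2afv call held only without untreated replicate 4 or VE822 replicate 1.

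Further genes passed, each by a margin that single libraries decided. Of the NF-kB list these were Vcam1, an adhesion molecule of activated vessels (0.64), Cd83, of mature dendritic cells (0.42), and Nfkb2 (0.23), of which the largest adjusted p with 1 library left out was 0.113, 0.0995 and 0.122 (without VE822 replicate 4, untreated replicate 1 and VE822 replicate 5). Vcam1 was at 11.44 in replicate 4 against 10.48 to 10.77 in the other 4. Flt3, a growth factor receptor of dendritic cells, rose by 0.71 (adjusted p up to 0.0668, without VE822 replicate 1), and Tgfbi, a matrix protein induced by TGF-beta, by 0.36 (up to 0.0904, without VE822 replicate 2). Adm, the vasodilator adrenomedullin, fell by 0.96 (up to 0.0719, without VE822 replicate 4) and Ero1l, an oxidase of protein folding, by 0.49 (up to 0.115, without VE822 replicate 2). Of the p53 targets, Trp53inp1 fell by 0.30 (up to 0.124, without VE822 replicate 2) and Phlda3, an inhibitor of AKT, by 0.22 (up to 0.0818, without VE822 replicate 3). Dusp1, a phosphatase of MAP kinases, fell by 0.37 (up to 0.0525, without untreated replicate 4), Myc by 0.32 (up to 0.0922, without VE822 replicate 2) and Pfkm, a phosphofructokinase, by 0.21 (0.0506 without VE822 replicate 5).

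Of the 10 genes with the smallest interaction p, 5 remain to be given, and none passed after adjustment (limma adjusted p 0.424 for each). Eny2, a subunit of the SAGA complex, fell by 0.26 here and differed by 0.12 under WT. Dusp8, a phosphatase (0.23 and -0.36), Slfn8, a Schlafen family gene (0.04 and -0.40), Kank1 (-0.14 and -0.47) and Kif9, a kinesin (0.14 and -0.36), did not pass here. Ppef1, picked like Ptgds and Slc2a3 because it set replicate 4 far apart, was at 6.16 there. It was at 9.41 to 9.52 in the other 4 VE822 libraries and 6.67 to 7.64 untreated, the same order as Ptgds and Slc2a3.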
